A study of Mus musculus with 2 samples.

Results

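The 96 genes described here carry symbols that begin with Kcn, the stem that names mammalian potassium channel genes. They were chosen by symbol among the 43346 mouse genes measured, and 3 further Kcn-named genes, Kcne2, Kcnj13 and Kcnj8, were left out. Of the 96 genes, 91 were protein-coding and 5 were noncoding RNAs named after a channel gene. Total RNA longer than 200 nucleotides was sequenced from the forebrain of B6NCrl mouse embryos of mixed sex at embryonic day 15.5. The design held 1 group of 2 biological replicates: replicate 1 was a pool of 78 embryos and replicate 2 a separate pool of 62, and 10 ng of RNA with spike-ins went into each library. A single group allows no contrast between conditions, and the smallest p that an exact two-sided sign-flip test over 2 libraries can give is 0.5, so no p-values are given.

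Potassium channels let potassium leave the cell and so pull the membrane towards rest. Their pore is lined by a short conserved loop, the selectivity filter, and the families differ in what opens them: voltage, intracellular calcium or sodium, lipids and stretch, or G proteins. In the developing forebrain they are known to set the resting potential of progenitors and the firing of young neurons. In a bulk tissue library, fewer cells of a type and less RNA per cell cannot be told apart.

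The selectivity filter is the sequence that the pore genes share, and the bases that encode it are shown for some of the genes described below. In the GENCODE M21 transcripts on GRCm38 (mm10), reading the coding sequence of each of the 75 pore genes for threonine or serine, then valine, isoleucine, leucine or threonine, glycine, then tyrosine, phenylalanine or leucine, and glycine found the expected number of filters in 75 of 75. That number is 1 per gene, and 2 for the Kcnk genes, whose subunits carry a pair of pore loops. The pattern was meant to take in variants as read, so the full count is not an independent check of it. The 15 bases of the filter are in capitals, with 6 coding bases on either side; coordinates are those of the capitals.
Kcna3, chr3:107037611-107037625, plus strand: atgacaACTGTTGGTTATGGTgatatg
Kcng1, chr2:168262641-168262655, minus strand: atgacaACCGTAGGCTACGGAgacatg
Kcnh7, chr2:62777343-62777357, minus strand: ctaaccAGTGTAGGATTTGGAaatgtg
Kcnj3, chr2:55437627-55437641, plus strand: gaggccACCATCGGCTATGGCtaccgc
Kcnma1, chr14:23528413-23528427, minus strand: atgtctACAGTGGGTTATGGGgacgtt
Kcnu1, chr8:25881390-25881404, plus strand: atgtcaACTGTTGGCTTTGGGgacgtg
Kcnd2, chr6:21217406-21714141, plus strand: atgacaACACTGGGGTATGGCgacatg
Kcnk10, first filter, chr12:98490058-98496199, minus strand: atcacaACCATAGGGTATGGGaatatt
Kcnk10, second filter, chr12:98440605-98440619, minus strand: ctgaccACAGTAGGCTTTGGTgatttt
Kcnk2, first filter, chr1:189258891-189295600, minus strand: atcacaACCATAGGATTTGGAaacatc
Kcnk2, second filter, chr1:189256581-189256595, minus strand: ctgacgACCATTGGATTTGGAgactac

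In the printed windows of Kcnd2, Kcnk10 and Kcnk2 the capitals span an intron in the genome, which is why their coordinates run over many kilobases. An intron within the 15 filter bases was found in all 3 Kcnd genes and in the first filter of all 14 Kcnk genes, and in 0 of the other 58 pore genes; the second Kcnk filter lay within 1 exon in all 14. Threonine, valine, glycine, tyrosine, glycine was a filter of 23 genes, among them all Kcna, Kcng and Kcns genes. The same loop with isoleucine in second place was found in 24 genes, among them 11 of the 13 Kcnj genes. Of the 8 Kcnh genes, 7 began with serine and had phenylalanine before the last glycine, and Kcnh5 began with threonine.

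Most potassium channel genes were measured at low levels. Levels are in TPM, a relative abundance of transcripts corrected for their length, and a gene is called detected at 1 TPM or more in both libraries. By that mark 62 of the 96 genes were detected (64.6%), against 34.4% of all genes measured. Among protein-coding genes the figures were 60 of 91 (65.9%) against 60.6% of all protein-coding genes, a share near that background. The detected coding members had a median of 4.55 TPM (4.68 in replicate 1 and 4.29 in replicate 2), and all detected coding genes one of 20.9 TPM (21.1 and 20.8). Of the 60, 4 reached that median, among them Kcnip1, Kcnk10 and Kcne1l. All 96 genes together held 38635 of 38720511 expected counts in replicate 1 (0.0998%, 95% Wilson interval 0.0988 to 0.1008%) and 34140 of 35103430 in replicate 2 (0.0973%, 0.0962 to 0.0983%); intervals cover counting error only. Of these counts, 3999 in replicate 1 and 3454 in replicate 2 were on the noncoding RNA Kcnq1ot1, which does not encode a channel. The summed level was 468 and 448 TPM, and the 10 highest genes held 49.4% of it.

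The mark of 1 TPM fell where the genes lie close together. Just above it were Kcnk12, at 1.37 and 1.06 TPM in replicates 1 and 2, and Kcne4, at 1.14 and 1.08 TPM. Just below were Kcnk13, at 0.91 and 0.95 TPM, and Kcnj2, at 1.09 and 0.84 TPM. No reads were assigned to Kcna10, Kcnj1 and Kcnk16 in either library. At these depths 0 reads allow up to 3, which is 0.124 and 0.135 TPM for Kcna10, 0.0432 and 0.0470 TPM for Kcnj1, and 0.164 and 0.179 TPM for Kcnk16.

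**Figure D1:**
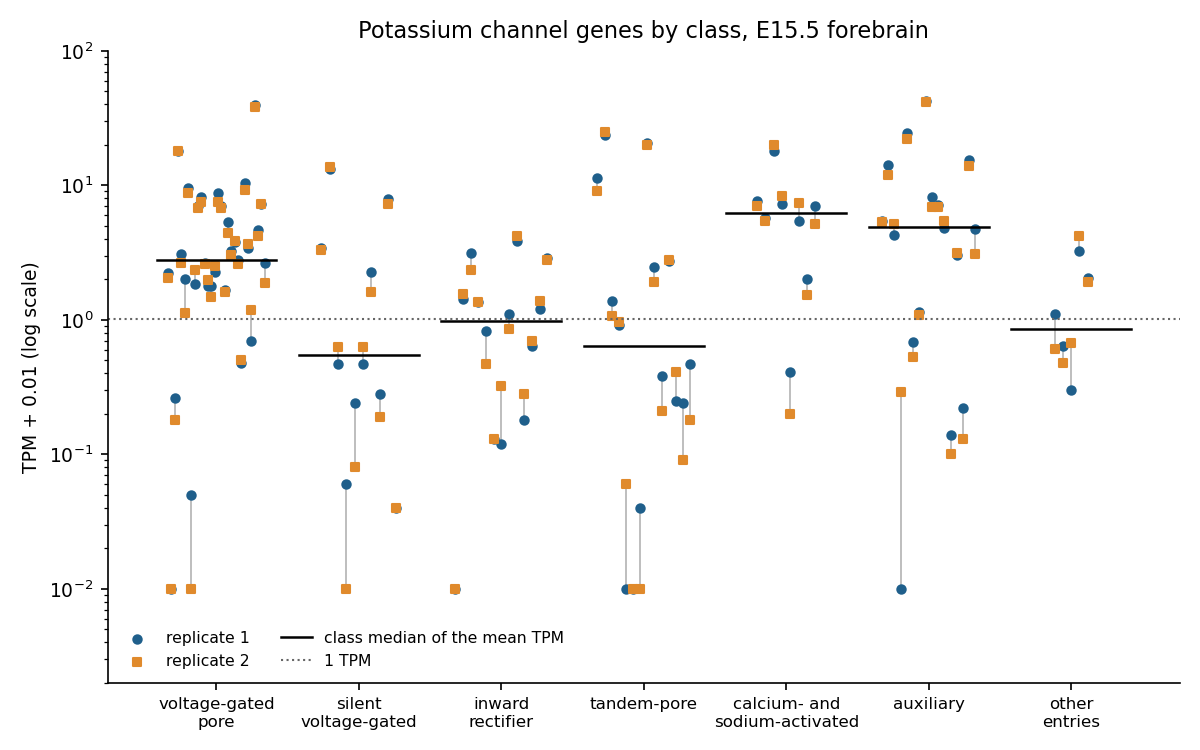
Level of each of the 96 genes (vertical axis, TPM + 0.01, log scale) by class; circles are replicate 1, squares replicate 2, joined by a grey line for each gene, black bars the class median of the mean TPM, and the dotted line 1 TPM. The calcium- and sodium-activated class has the highest median (6.22 TPM, over all transcript types). The Kcnk (tandem-pore) and silent classes spread from 0 or near 0 to over 10 TPM, and so do the voltage-gated pore and auxiliary classes.

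Classes were set by symbol, and they differed in how many of their genes were detected. Of the voltage-gated pore genes (Kcna, Kcnb, Kcnc, Kcnd, Kcnh and Kcnq) 25 of 30 were detected, of the calcium- and sodium-activated channels (Kcnma, Kcnn, Kcnt and Kcnu) 7 of 8, and of the auxiliary subunits (Kcnab, Kcne, Kcnip, Kcnmb and Kcnrg) 12 of 16. The silent voltage-gated subunits (Kcnf, Kcng, Kcns and Kcnv) had 4 of 10 detected, the inward rectifiers (Kcnj) 6 of 13 and the tandem-pore-domain channels (Kcnk) 6 of 14. The first 3 classes lay above the 60.6% of all coding genes and the last 3 below it; no test of these counts was made.

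The medians of the measured genes were 6.22 TPM in the calcium- and sodium-activated class, 4.90 in the auxiliary, 2.76 in the voltage-gated pore, 0.965 in the inward rectifier, 0.625 in the tandem-pore and 0.540 in the silent class. The middle genes of the calcium- and sodium-activated class were Kcnt1 and Kcnu1, at means of 6.38 and 6.07 TPM over all transcript types. Of these levels, 37.0% and 0% lay on protein-coding transcripts that hold the filter. On the scale of log2(TPM + 0.1), the voltage-gated pore median was 1.43 ± 0.13 above the inward rectifiers (SD of the 2 libraries, 1.34 and 1.53). It was 2.12 ± 0.07 above the tandem-pore channels (2.00 and 1.91 within the libraries, where the middle genes differ), but 0.84 above them when genes under 10 summed reads were left out. It was 1.14 below the calcium- and sodium-activated class (-1.14 ± 0.08, with -1.09 and -1.20 in the libraries). Against the auxiliary class the difference was -0.80 ± 0.20 and changed sign, to 0.42, in CPM, reads scaled to the library total without length correction. The silent and tandem-pore medians differed by -0.04 ± 0.29, less than the spread of the libraries.

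A class with a low median could still hold a large share of the RNA. The tandem-pore channels summed to 64.3 and 61.2 TPM, or 13.7 ± 0.0671% of the summed TPM of all 96 genes (SD, n = 2), and the inward rectifiers, with a higher median, to 16.8 and 16.3 TPM, or 3.60 ± 0.0327%. The voltage-gated pore genes held 34.4 ± 0.268%, which became 43.7% without length correction. Auxiliary subunits held 28.7 ± 0.509%, calcium- and sodium-activated channels 11.8 ± 0.607%, silent subunits 6.07 ± 0.0667% and the 5 noncoding entries 1.65 ± 0.138%. Without length correction the auxiliary share was 15.6%, the tandem-pore 10.4% and the calcium- and sodium-activated 9.61%. The silent share was then 6.99% and that of the inward rectifiers 3.27%. The SDs cover the spread of the libraries and not this dependence on length. One gene gave much of a class's sum: Kcng1 was 48.3% of the silent class, Kcnk10 38.6% of the tandem-pore class, Kcnn2 35% of the calcium- and sodium-activated class and Kcnip1 31.8% of the auxiliary class.

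**Figure D2:**
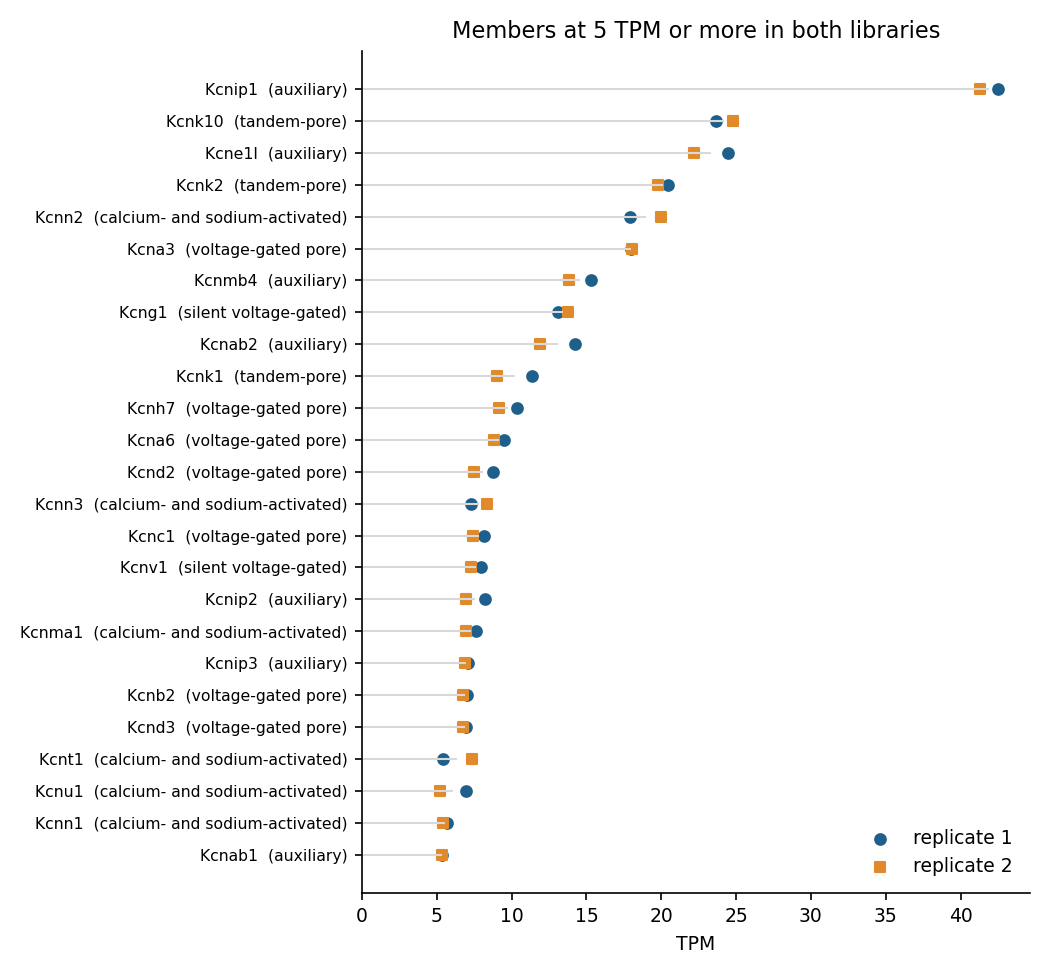
Level of 25 genes at 5 TPM or more in both libraries (horizontal axis, TPM, linear), with the class in brackets; circles are replicate 1 and squares replicate 2. Among the genes plotted Kcnip1 is highest at 41.9 TPM, and the next is Kcnk10 at 24.2 TPM. Genes that are not reported here are left out of the plot, so the gap between these 2 is not a gap among all members.

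Among the voltage-gated pore genes, the Kcnq family forms the slowly gating channels of the M-current, which limits repetitive firing, and related channels outside the brain. Kcnq3 was at 4.61 and 4.19 TPM in replicates 1 and 2, and Kcnq5 was lower at 2.61 and 1.86 TPM, with no overlap of the library values. Kcnq5 shares exonic positions on the opposite strand with Gm26580, a noncoding gene at 3.07 and 2.75 TPM, whose reads cannot be told apart from its own. Kcnq1, best known from the heart, was below 1 TPM in replicate 1 (0.68 TPM) and above it in replicate 2 (1.17 TPM).

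The shaker-type Kcna genes were led by Kcna3, a channel best known from lymphocytes, at 17.97 and 18.04 TPM (SD 0.0495, n = 2). Kcna6 followed at 9.49 and 8.81 TPM. Kcna1 and Kcna2 encode subunits found together along mature axons, and here they were at 2.22 and 2.04 TPM and at 0.25 and 0.17 TPM. The log2 ratio of Kcna2 over Kcna1 was -2.86 ± 0.18, so that Kcna1 was 7.25-fold higher and Kcna2 was not detected. Kcna4 and Kcna5 were detected, at means of 2.84 and 1.56 TPM, and Kcna7 and Kcna10 lay at 0.0200 TPM and 0.

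Kcnb2, a delayed rectifier, was at 7.0 and 6.78 TPM. The Kcnc genes encode fast-closing channels of rapidly firing neurons. Kcnc1 was at 8.17 and 7.44 TPM. Kcnc2 and Kcnc4 had means of 2.62 and 1.62 TPM.

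The 3 Kcnd genes, whose channels carry the A-type current that opens and inactivates quickly, were all detected and close in level for the 2 higher ones. Kcnd2 was at 8.73 and 7.46 TPM and Kcnd3 at 6.95 and 6.75 TPM, a ratio of 1.18-fold (log2 ratio 0.23 ± 0.13). This was the smallest of the 11 ratios reported in gene-level TPM. Over coding transcripts alone it was 0.53 on the log2 scale, wider than that of Kcnn3 over Kcnn2 (-0.29). In CPM the log2 ratio of Kcnd2 over Kcnd3 was 0.01. Kcnd1 was at 2.26 and 2.48 TPM.

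Of the 8 Kcnh genes (the ether-a-go-go family) 7 were detected, and Kcnh7 led at 10.33 and 9.18 TPM (9.75 ± 0.813). Kcnh2, Kcnh4, Kcnh8, Kcnh3, Kcnh5 and Kcnh1 followed with means from 4.87 down to 1.62 TPM, and Kcnh6 was at 0.47 and 0.49 TPM. Kcnh1 was 0.69 ± 0.04 below Kcnh5 on the log2 scale (ratio -0.69) in TPM, and 0.12 above it in CPM. Kcnh3 shares exonic positions on the opposite strand with Mcrs1, a gene at 168 TPM, and Kcnh7 with Gca, at 8.07 TPM. No source used here gives the strand setting of the counting, so reads of such partners cannot be told apart.

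The silent subunits do not conduct alone and are known to join Kcnb subunits and change their gating. Kcng1 was at 13.11 and 13.75 TPM (13.4 ± 0.453), above Kcnb2 in both libraries. Kcnv1 was at 7.92 and 7.30 TPM, Kcnf1 at 3.38 and 3.27 TPM and Kcns2 at 2.27 and 1.59 TPM. The remaining 6, Kcng2, Kcns1, Kcns3, Kcng4, Kcnv2 and Kcng3, had means between 0.0250 and 0.540 TPM. Kcng3, the lowest, had 4 reads in replicate 1 and 0 in replicate 2.

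Inward rectifiers pass potassium more easily into the cell than out of it and hold the resting potential. None of the 13 counted here reached 5 TPM. The class leaves out Kcnj8, at 12.19 and 11.02 TPM, and Kcnj13, at 9.75 and 4.97 TPM, and its counts, median and share are given without them. Among the 13, Kcnj3 was highest at 3.84 and 4.19 TPM; it encodes a subunit of the channels that G proteins open, usually paired with the product of Kcnj6, which was at 1.2 and 1.38 TPM. Kcnj3 was 2.96-fold higher than Kcnj6 (log2 ratio of Kcnj6 over Kcnj3 -1.57 ± 0.05), and Kcnj9, of the same group, was at 2.87 and 2.78 TPM. Kcnj11, the pore of the channel that ATP closes, was at 3.14 and 2.34 TPM. The glial rectifier Kcnj10 was at 1.41 and 1.55 TPM, and Kcnj16, which can join it, was at 0.11 and 0.31 TPM with 9 and 17 reads, a log2 ratio of 2.43 ± 0.59. Kcnj12 was detected at a mean of 1.35 TPM. Of the 7 not detected, Kcnj1 had no reads and the other 6 had means between 0.120 and 0.965 TPM.

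The tandem-pore channels carry the leak current that flows at rest. A pair of closely related genes led them, Kcnk10 and Kcnk2, whose channels respond to stretch and to lipids. Kcnk10 was at 23.68 and 24.78 TPM (24.2 ± 0.778) and Kcnk2 at 20.48 and 19.75 TPM (20.1 ± 0.516). Kcnk1 followed at 11.33 and 9.04 TPM, so it passed 10 TPM in replicate 1 only, and Kcnk5 at 2.72 and 2.79 TPM. Kcnk9, an acid-sensitive channel, had 12 and 4 reads, 0.46 and 0.17 TPM. Kcnk2 was 5.70 ± 0.71 above it on the log2 scale, the widest of the 11 ratios. Of its close relatives, Kcnk3 was at 2.45 and 1.90 TPM and Kcnk15 at 0 and 0.05 TPM. Levels in the class thus ran from over 20 TPM to no reads at all. Kcnk2 shares exonic positions on the opposite strand with A430027H14Rik, at 7.27 TPM.

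Of the calcium- and sodium-activated channels only Kcnn4 was not detected, at 0.40 and 0.19 TPM. The small-conductance channel gene Kcnn2, whose channel senses calcium through bound calmodulin, was highest at 17.94 and 19.98 TPM (19.0 ± 1.44). Its paralog Kcnn3 was at 7.28 and 8.35 TPM, 2.41-fold lower (log2 ratio of Kcnn3 over Kcnn2 -1.27 ± 0.03). Over coding transcripts alone that log2 ratio was -0.29, with the retained-intron transcript that leads Kcnn2 left out. Kcnn1 was at 5.68 and 5.43 TPM. Kcnma1, the pore of the large-conductance BK channel, was at 7.63 and 6.95 TPM. The sodium-activated Kcnt1 was at 5.42 and 7.33 TPM and Kcnt2 at 1.99 and 1.53 TPM, a log2 ratio of Kcnt2 over Kcnt1 of -1.79 ± 0.56, which was -0.54 over coding transcripts alone and -1.03 in CPM. Kcnu1, a pH-sensitive channel known from sperm, was at 6.97 and 5.18 TPM; its transcripts are described below.

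Auxiliary subunits included the highest of all 96 genes. Kcnip1, a calcium-binding protein that joins Kcnd channels, was at 42.50 and 41.30 TPM (41.9 ± 0.849), higher than 68.7% of all detected coding genes. All 4 Kcnip genes were detected, with Kcnip2 at 8.21 and 6.93 TPM, Kcnip3 at 7.10 and 6.87 TPM and Kcnip4 at 4.80 and 5.41 TPM. Together they summed to 62.6 and 60.5 TPM, against 17.9 and 16.7 TPM for the 3 Kcnd pore genes. Kcnip1 was 8.08-fold above Kcnip4 (log2 ratio 3.01 ± 0.15). Kcnip4 shares exonic positions on the opposite strand with 5730480H06Rik, a coding gene at 12.8 TPM, whose reads cannot be told apart from its own. The single-exon gene Kcne1l was at 24.47 and 22.19 TPM, while Kcne4 was near 1 TPM and Kcne1 and Kcne3 were not detected.

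Kcnmb4, the BK subunit of the brain, was at 15.29 and 13.84 TPM, and Kcnma1 was 0.99 ± 0.01 below it on the log2 scale (1.98-fold lower). Without length correction Kcnma1 was instead 0.72 above Kcnmb4. Kcnmb2 was at 3.02 and 3.11 TPM, and Kcnmb1 and Kcnmb3 were not detected; Kcnmb1 was the lowest of the class at 0.110 TPM. The Kcnab genes encode cytoplasmic subunits of Kcna channels. Kcnab2 was at 14.25 and 11.91 TPM and Kcnab1 at 5.37 and 5.35 TPM, a log2 ratio of 1.27 ± 0.18, and Kcnab3 was at 4.23 and 5.17 TPM.

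**Figure D3:**
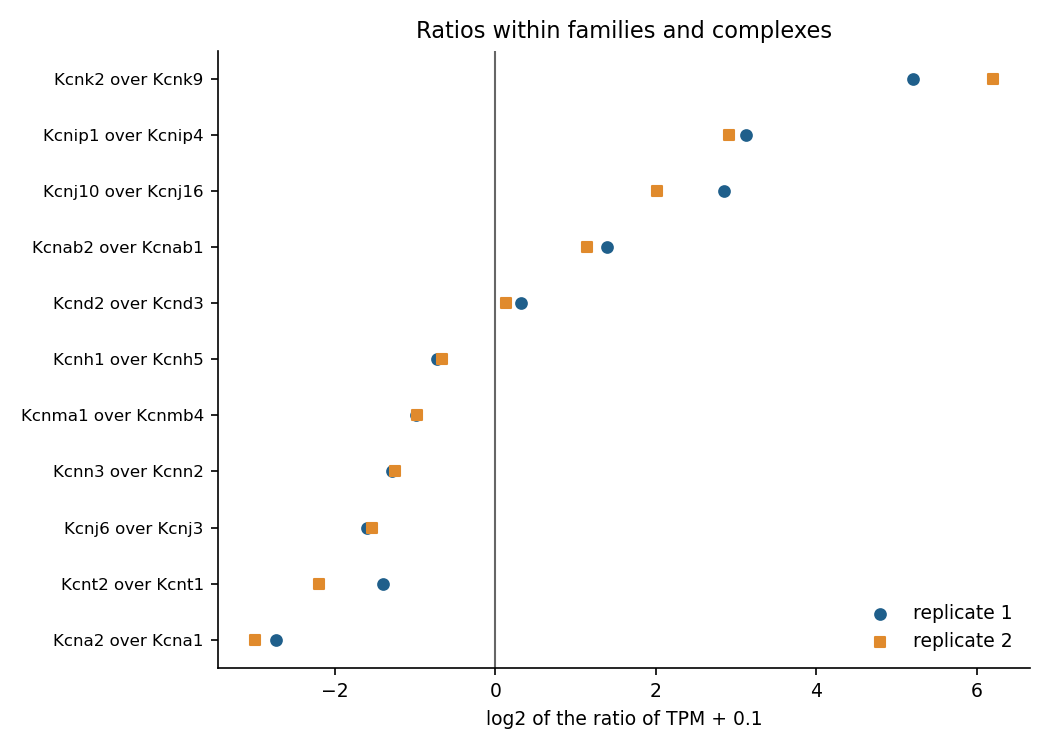
Log2 ratio of TPM + 0.1 (horizontal axis) for 11 pairs within a family or complex; circles are replicate 1, squares replicate 2, and the vertical line marks equal levels. Each pair lies on 1 side of the line in both libraries, from Kcna2 over Kcna1 at -2.86 to Kcnk2 over Kcnk9 at 5.70.

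In gene-level TPM each of the 11 ratios exceeded the SD of the 2 libraries, and the same gene was higher in both. This did not hold in CPM, where Kcnd2 over Kcnd3 was 0.01 and the ratios of Kcnh1 over Kcnh5 and Kcnma1 over Kcnmb4 changed sign. The 5 noncoding entries had a median of 0.85 TPM. Kcnmb4os2, antisense to Kcnmb4, was at 3.23 and 4.21 TPM, and the long imprinted antisense RNA Kcnq1ot1 at 2.03 and 1.91 TPM with 3999 and 3454 reads. Kcnab3os, Kcnd3os and Kcnmb4os1 were not detected, with means of 0.85, 0.550 and 0.475 TPM. All 5 lie opposite the coding gene they are named after, and 25 of the 91 coding members overlapped an exon of some gene on the opposite strand. The share of all coding genes with such an overlap was not counted.

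Of 26 genes known to work with potassium channels but not named Kcn, 21 were detected, against 60.6% of all protein-coding genes. The list was chosen by name and includes the sodium-potassium pump and calmodulin genes, so its count is not a result about channel partners as a set. Both partners of the Kcnd channels were, Dpp6 at 22.94 and 19.72 TPM and Dpp10 at 5.71 and 4.79 TPM. Amigo1, the partner of Kcnb channels, was at 9.48 and 8.02 TPM. Abcc8, the sulfonylurea receptor that surrounds the Kcnj11 pore, was at 11.67 and 10.89 TPM, above Kcnj11 in both libraries. Of the 4 gamma subunits of the BK channel only Lrrc55 was detected, at 6.13 and 6.33 TPM, and Lrrc52 had 0 reads. The 4 genes of clustering and anchoring at the axon were detected, with Ank3 at 73.40 and 71.55 TPM and Cntnap2, which gathers Kcna channels, at 55.32 and 52.16 TPM. Among the pacemaker channels Hcn3 stood at 28.28 and 24.65 TPM and Hcn4 at 1.89 and 1.91 TPM, and Hcn2 was not detected, at 0.57 and 0.53 TPM. All 6 sodium-potassium pump genes were detected, among them Atp1b3 at 124.11 and 113.51 TPM, and so were all 3 calmodulin genes.

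A gene's TPM is the sum over its transcripts, and not all of them encode a channel. Of the 60 detected coding members, 20 had a single transcript in the tables, a count not made over all detected coding genes. In 4 members (6.67%) the transcript with the highest mean TPM was not annotated as protein-coding, against 6.99% of all detected coding genes, a share near that background. They were Kcnn2, Kcna6, Kcnt1 and Kcnd1. In 3 (5.0%) the leading transcript differed between the libraries, against 5.75% of all detected coding genes. These were Kcnip3, Kcnh1 and Kcnt1. For Kcnip3, the transcript Kcnip3-203 held 71.5 and 48.1% and Kcnip3-201 held 26.1 and 50.7%. For Kcnh1, Kcnh1-201 held 78.8 and 24.1% and Kcnh1-202 held 21.2 and 75.9%; both encode a channel and they are of nearly equal length, 7242 and 7161 bases. The division of reads between such transcripts is an estimate and carries no error of its own in the tables.

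The filter bases, printed above for some of the genes only, let the pore genes be read by whether their RNA held them. In 29 of the 48 detected pore genes all of the TPM was on protein-coding transcripts with the filter, in both libraries, and in 34 it was over 90%. Both counts include genes with a single transcript in the tables, such as Kcna3, Kcnd2 and Kcnk10. For these the annotation allowed no other value, so the counts do not measure the RNA of such genes. In 6 genes it was under 50% in both libraries: Kcnu1, Kcna6, Kcnh7, Kcnt1, Kcnd1 and Kcnn2. Of these Kcnu1 and Kcnd1 were named after their values were seen. Counting transcripts of any type left 3 of the 6 under that mark (Kcnu1, Kcnh7 and Kcnd1), and counting reads in place of TPM left 3 (Kcnu1, Kcna6 and Kcnn2), so Kcnu1 was under it in each setting run.

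**Figure D4:**
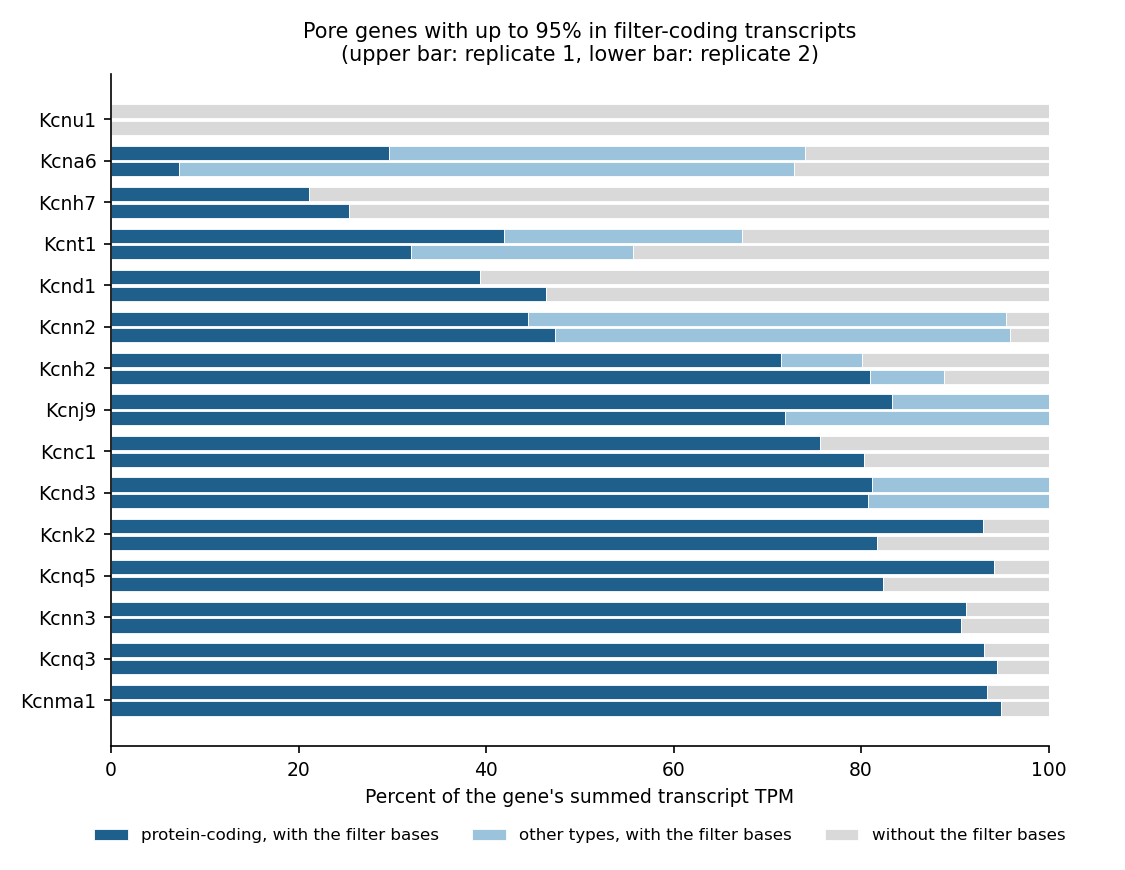
Share of a gene's summed transcript TPM (horizontal axis, percent) on protein-coding transcripts with the filter bases (dark blue), on transcripts of other types with them (light blue) and on transcripts without them (grey), for detected pore genes with up to 95% in the first kind (15 shown); the upper bar of each gene is replicate 1 and the lower replicate 2. Kcnu1 has no TPM on filter-bearing transcripts, and Kcnn2 has over 90% once other transcript types are counted.

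For Kcnu1 the share was 0 in both libraries. All of its TPM was on Kcnu1-202, at 4.93 and 4.37 TPM, and Kcnu1-203, at 2.03 and 0.80 TPM. These begin at positions 25911680 and 25911692 of chromosome 8, downstream of the filter on the plus strand, and the full-length Kcnu1-201, which begins at 25849623 and has 27 exons, was listed at 0. The gene therefore counted as detected without any TPM on a transcript that encodes the pore loop.

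Kcnh7 had 4 transcripts, of which only the 13321-base Kcnh7-201 held the filter, at 21.1 and 25.4% of TPM. It took 674 and 662 reads, so by reads its share was 59.0 and 63.5%. The shorter Kcnh7-203 and Kcnh7-202, also annotated as coding, end at 62786281 and 62786367 of chromosome 2 on the minus strand, before the filter is reached. Kcna6 was mostly on Kcna6-201, annotated for nonsense-mediated decay, at 4.21 and 5.78 TPM. Its coding transcript Kcna6-204 was at 2.81 and 0.64 TPM, and the coding share of 29.6 and 7.26% thus differed between the libraries; with posterior mean TPM it was 37.7 and 35.6%. Both transcripts hold the same filter bases.

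Kcnn2 had its highest level on Kcnn2-207, a retained-intron transcript, at 8.49 and 8.89 TPM, and 44.5 and 47.4% on coding transcripts with the filter. Kcnt1 was spread over 11 transcripts, and 41.9 and 32.0% was on coding ones with the filter. Kcnd1 was divided between Kcnd1-201, which encodes the channel, at 0.89 and 1.15 TPM, and the 751-base processed transcript Kcnd1-202 at 1.37 and 1.33 TPM. By reads Kcnd1-201 held 83.8 and 87.3%.

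In Kcnc1 the leading Kcnc1-201 held 48.7 and 52.5% and the filter share was 75.6 and 80.3%, and in Kcnma1 the leading Kcnma1-201 held 36.1 and 36.5% with a filter share of 93.4 and 94.9%.

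The libraries were close for most members. Among the 81 genes with 20 or more summed reads, 8 (9.88%) differed by more than 1.5-fold, against 7.07% of the 17600 genes measured with as many reads. The median log2 ratio of replicate 1 over replicate 2 was 0.05 among the members and 0.02 among all those genes. The median absolute log2 ratio was 0.15 among the members and 0.11 among all those genes. Among the 65 members with 100 or more reads, 2 passed 1.5-fold. These were Kcna5, at 2.00 and 1.11 TPM with 128 and 65 reads, and Kcnrg, at 4.74 and 3.07 TPM with 84 and 50 reads. The ratio of reads, scaled by the library totals, was 1.79 for Kcna5 (exact binomial 95% interval 1.31 to 2.44) and 1.52 for Kcnrg (1.06 to 2.21). Kcns2 came next at 2.27 and 1.59 TPM.

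In the other direction the largest differences among members with 100 or more reads were small. Kcnt1 was at 5.42 and 7.33 TPM (log2 ratio of replicate 1 over replicate 2 of -0.43) and Kcnmb4os2 at 3.23 and 4.21 TPM (-0.37). The other 6 past 1.5-fold, named after their values were seen, were Kcnq1, Kcnk4, Kcng4, Kcnj16, Kcnn4 and Kcnj14, all below 1 TPM by mean. Of 10 lists of tissue and cell type markers, that of the choroid plexus had the largest ratio between the libraries in summed TPM. All 5 forebrain markers were detected (summed 862 and 865 TPM) and 0 of 4 of hindbrain and spinal cord (0.310 and 0.240 TPM, 2 of them at 0 in both). The 5 choroid plexus markers, 4 of them detected, summed to 812 and 360 TPM. Their part in the differences of the members was not tested.

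**Figure D5:**
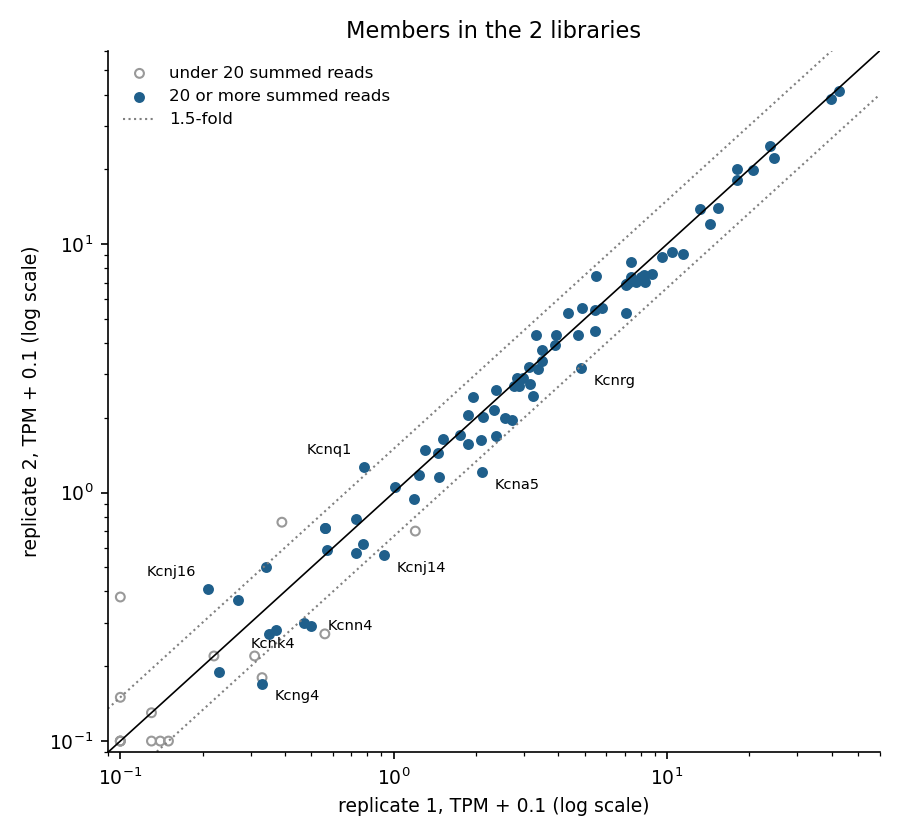
Level of each member in replicate 1 (horizontal axis) against replicate 2 (vertical axis), both TPM + 0.1 on log scales; filled points have 20 or more summed reads, open points fewer, the solid line marks equal levels and the dotted lines 1.5-fold. The 8 named genes with enough reads lie outside the dotted lines, and 2 of them, Kcna5 and Kcnrg, lie above 1 TPM in both libraries.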

How the data were processed

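The authors quantified against mm10 (GRCm38) with GENCODE M4, per the deposited file notes. No source used here names the quantifier, its version or the strand setting. Expected counts are the authors' estimates of reads for genes and for transcripts, fractions included. The authors' deposited TPM and FPKM are scaled by length and depth, and their deposited percent column is a transcript's part of its gene. The depth was 38720511 expected counts for replicate 1 and 35103430 for replicate 2.

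Symbols were joined by gene identifier (42462 genes, 98.0%). Gene types, spans and transcript sequences came from GENCODE M21 on the same assembly, where 3 of 304 member transcripts had no match. Levels used log2(TPM + 0.1) with a detection mark of 1 TPM, and ratios between libraries needed 20 summed reads. Folds given for pairs come from the mean log2 ratio of TPM + 0.1. The 2 replicates are separate pools, so an SD covers pool and technical spread together. The members, classes, pairs and lists were chosen with earlier results of these data known. Named are all members at 10 TPM in both libraries, the 4 highest and the lowest of each class, the pairs, the members nearest 1 TPM, the 3 largest library differences in each direction, and members at 5 TPM with a divided, differing or noncoding leading transcript; further names were chosen after their values were seen. A few genes and 4 of the 15 pairs are not reported here. The filter search on transcripts replaced a planned reading of a protein table, which was not used here. Of 96 members 69 (71.9%) had a promoter entry, too few for a check of promoter features, which is void. Alternatives used posterior means, FPKM, CPM, other thresholds and pseudocounts, single libraries, and the scalings of edgeR 4.0.16 (TMM) and DESeq2 1.42.0 in R 4.3.3; matplotlib 3.10.9, scipy 1.17.1, pandas 2.3.3, numpy 2.4.6 and Python 3.11.15 did the rest.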

Additional observations from a re-analysis of the deposited data

How the results depend on the processing

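With 2 pools of 1 group no difference between genes was tested, so agreement of the libraries is a description. There were 188 alternative values for the counts, class differences, class shares and pair ratios. Only the 90 pair ratios and 45 class differences among them could change sign. Of these 3 did, all in CPM without length correction: Kcnh1 over Kcnh5 (0.12 on the log2 scale), Kcnma1 over Kcnmb4 (0.72) and the voltage-gated pore minus the auxiliary class (0.42). Without length correction the log2 ratio was also -4.47 for Kcna2 over Kcna1, 3.47 for Kcnj10 over Kcnj16, -2.61 for Kcnj6 over Kcnj3 and 7.01 for Kcnk2 over Kcnk9. With a pseudocount of 1 it was -1.37, 1.04 and 4.01 for the first, second and last of these, and Kcnj10 over Kcnj16 was 1.36 in posterior mean TPM. Kcnd2 over Kcnd3 was 0.01 in CPM. The 62 detected members became 27 at 5 TPM. The voltage-gated pore median minus the inward rectifiers was 0.94 with a pseudocount of 1, 2.18 without length correction and 1.69 as a mean over members. Minus the tandem-pore channels it was 1.24 and 2.31 with pseudocounts of 1 and 0.01, 2.90 without length correction, 1.46 as a mean and 0.84 with at least 10 summed reads, and 1.91 to 2.00 in single libraries. Minus the calcium- and sodium-activated class it was -0.94, -0.53 and -0.71 with a pseudocount of 1, without length correction and as a mean, -1.03 with at least 10 reads and -0.98 without Kcnt and Kcnu and with Kcnmb moved. The voltage-gated share of summed level became 43.7% without length correction, and the auxiliary share fell from 28.7% to 15.6%. Members past 1.5-fold between the libraries numbered 15 with no read filter and 2 with 100 reads; with 20 or more reads 0 passed 2-fold. Genes with under 50% of TPM on filter-coding transcripts numbered 3 when any transcript type counted and 3 by reads, settings chosen after seeing the data. Where the setting itself does not show it, the cause was not tested. Depth limits the members under 20 reads most. No paired analysis was possible because there is 1 group.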
